A study of Pinus pinaster with 30 samples.

Results

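Early cotyledonary embryos of maritime pine (*Pinus pinaster*), collected on Day11 at stage T4B, were compared with early embryos collected on Day0 at stages T0, T1 and T2. The interval runs from the youngest embryos of the collection to the appearance of cotyledon primordia, and the comparison asks which transcripts differ between its 2 ends. It rests on 6 of the 15 biological samples of the time course (3 per day) and on 12 of its 30 arrays, since each sample was hybridised on 2 technical replicate arrays whose values were averaged. Each sample was a pool of 60 dominant zygotic embryos dissected from seeds of open-pollinated trees, with cones from 3 to 5 trees at each date. The labels give no treatment, genotype or mutant, and they set the 2 groups apart by collection day and embryo stage. Whether the same trees were sampled on both dates is not stated, so parent trees may differ as well. Every array carried embryo RNA in Cy3 against 1 common reference in Cy5, a pool of 200 ng of RNA from every biological sample of all days, with no dye swap. A value is therefore the log2 ratio of embryo over reference pool, and a difference is Day11 minus Day0, so that a positive difference means a higher relative transcript level on Day11. The Day0 pools mixed 3 consecutive stages, and the labels do not say whether the 3 pools of a day came from separate trees. The p-values therefore measure only spread between such pools, which may be partly technical. That spread was shared over the 15 samples of all days, not taken from Day0 and Day11 alone.

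The array holds cDNA spots from loblolly pine root and needle libraries, without embryo libraries, so transcripts particular to embryos may lack a spot, and related genes can share signal on a spot. Of its 26496 spots, 16462 had values in at least 2 replicates on both days and were tested. Of these, 10669 had values in all 6 samples and 5793 lacked 1 or more. Names came from the tables of the study, which cover 1773 tested spots, and most of those tables list spots for a change during embryogenesis. Counts over named spots therefore stand beside the same counts over all spots, and they are no independent evidence of a change.

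Conifer embryos develop inside a haploid storage tissue, the megagametophyte, and pass from a filamentous early embryo with a long suspensor to an embryo with a shoot apical meristem, a root pole and a ring of several cotyledons. In flowering plants this patterning depends on directed transport of auxin by PIN efflux carriers and AUX1-type influx carriers, on transcription factors that set organ and meristem domains, and on chromatin and small RNA pathways that silence genes and transposable elements. Growth of the embryo also requires cells to loosen and rebuild the wall of xyloglucan, pectin and cellulose that surrounds them. Because whole embryos were sampled, fewer cells of a type and less RNA per cell cannot be told apart.

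The 12 arrays carried between 10847 and 15425 deposited values each (10847 to 15425 on Day11 and 12243 to 14092 on Day0). Technical replicates correlated with r between 0.874 and 0.907 for Day11 samples and between 0.888 and 0.932 for Day0 samples. Among spots with values on both days, samples of Day11 correlated with each other at 0.71 to 0.83, samples of Day0 at 0.62 to 0.81, and samples of different days at 0.07 to 0.31. Day0 replicate 1 stood somewhat apart. The SD of its log2 ratios over spots was 0.64, against 0.35 to 0.47 in Day11 samples and 0.49 and 0.46 in the other Day0 samples. Among 317 spots with values in all 6 samples that fell at least 2-fold, it was the highest Day0 sample in 196, and among 287 that rose at least 2-fold it was the lowest Day0 sample in 145. The number of arrays limits the precision.

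Many transcripts differed between the days, with rises and falls in similar number. With limma and Benjamini-Hochberg adjustment over all tested spots, 3966 of 16462 spots passed an adjusted p of 0.05 (24.1%), 2136 higher on Day11 (13.0%) and 1830 lower (11.1%). The median difference was 0.73 on the log2 scale among the higher spots and -0.75 among the lower ones, and 0.03 over all tested spots. At least 2-fold differences numbered 1057 (6.42%), 541 higher (3.29%) and 516 lower (3.13%). Falls reached further than rises, as 49 spots were at least 4-fold higher and 70 at least 4-fold lower, and 4 were at least 8-fold higher and 13 at least 8-fold lower. Whether these 4-fold and 8-fold counts hold without Day0 replicate 1, often the highest Day0 sample among falls, was not tested. Without Day0 replicate 1, 3404 of 14190 spots passed the adjusted p, 1850 higher and 1554 lower. In a fit of Day0 and Day11 alone, 3314 of 16462 spots passed, 1856 higher and 1458 lower. Spots with all 6 values and no overlap between the days numbered 4391 of 10669 (41.2%), 2298 of them higher on Day11 (21.5%) and 2093 lower (19.6%).

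**Figure D1:**
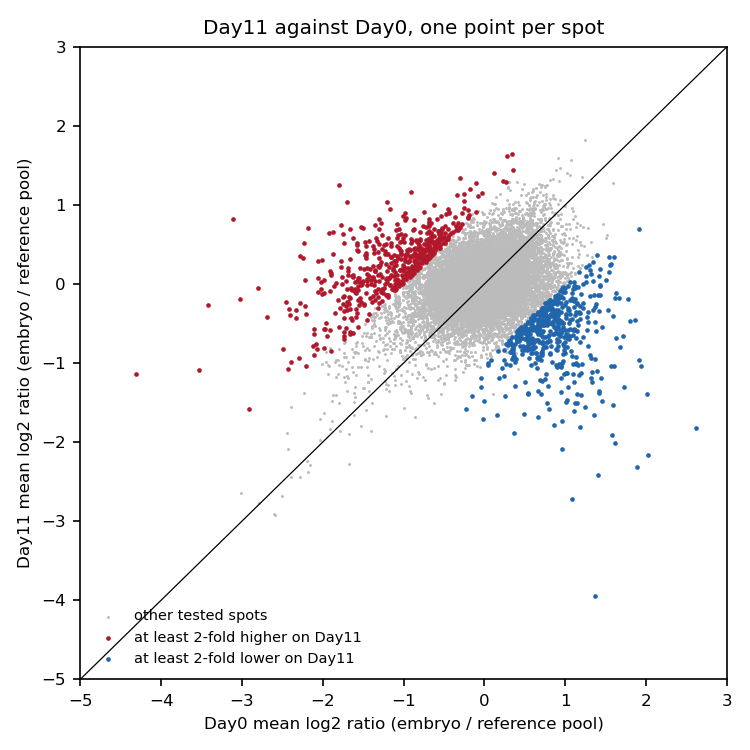
Mean log2 ratio of embryo over reference pool on Day11 (vertical axis) against Day0 (horizontal axis) for the 16462 tested spots, 1 point per spot. Red points are the 541 spots at least 2-fold higher on Day11 and blue points the 516 at least 2-fold lower, both past an adjusted p of 0.05, and the blue points reach furthest from the diagonal line of equal values.

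The largest fall was in a putative ortholog of glutathione S-transferase PHI 9 (spot 7.1.21.13), an enzyme that joins glutathione to reactive compounds. Its log2 ratios were -4.09, -3.83 and -3.93 in Day11 samples and 2.22, 0.61 and 1.28 in Day0 samples, a difference of -5.32 (SE 0.29, adjusted p = 6.5e-08), or 39.9-fold lower on Day11. The samples of Day11 lay close together far below the reference pool, whereas all Day0 samples lay above it. Transcripts similar to SKU5 similar 5 (2.1.19.10), a relative of a cell wall protein of directed root growth in *Arabidopsis thaliana*, had -2.30, -2.27 and -2.38 on Day11 and 2.83, 1.53 and 1.31 on Day0 (difference -4.21, SE 0.34, adjusted p = 5.2e-06). A cytochrome P450 of family 71 (5.4.9.1) differed by -3.83 (SE 0.26, adjusted p = 1.0e-06) and a gibberellin-regulated family protein (5.2.7.18) by -3.81 (SE 0.32, adjusted p = 5.0e-06). Day0 replicate 1 was the highest Day0 sample for the first 3 of these spots and replicate 3 for the last. The list of falls went on with XB3 ortholog 5 (5.3.7.20, an ankyrin-repeat ubiquitin ligase relative, 7.99-fold lower), NOD26-like intrinsic protein 6 (4.4.9.3, a membrane channel, -2.72), a plasma-membrane associated cation-binding protein (1.3.19.14, -2.71) and cell wall and storage transcripts described below.

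Of the named transcripts that rose, terpene synthase 02 (6.2.3.7), of the enzyme family that makes the backbones of conifer resin terpenes, had log2 ratios of 1.60, 1.44 and 0.74 in Day11 samples and -2.59, -1.21 and -1.59 in Day0 samples (difference 3.05, SE 0.43, adjusted p = 0.00017). Alcohol dehydrogenase 1 (3.2.20.4), the last enzyme of ethanol fermentation, had 0.71, 0.39 and 0.48 on Day11 and -2.47, -2.40 and -1.83 on Day0 (difference 2.76, SE 0.21, adjusted p = 2.4e-06). Carotenoid cleavage dioxygenase 1 (6.1.13.2), which cuts carotenoids into smaller volatile products, had 1.03, 1.03 and 1.05 on Day11 and -1.56, -1.95 and -1.61 on Day0 (difference 2.74, SE 0.24, adjusted p = 5.4e-06). In all of these spots the Day11 values lay above the reference pool. The days were far apart compared with the spread of their replicates, but large differences without overlap were how the spots were chosen. Beta-amylase 2 (3.4.11.15, starch breakdown) rose by 2.53, IQ-domain 2 (3.2.12.14, a calmodulin-binding protein) by 2.26, an amino acid transporter (6.3.6.6) by 2.25, flavonoid 3'-hydroxylase (3.3.2.15) by 2.21 and SOS3-interacting protein 3 (6.3.16.13, a calcium-signalling protein kinase) by 2.21. A spot named only as an unknown *Picea sitchensis* protein (7.2.11.20) rose by 3.15, with -1.18, 0.36 and 0.01 on Day11 and -3.82, -2.80 and -3.63 on Day0.

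**Figure D2:**
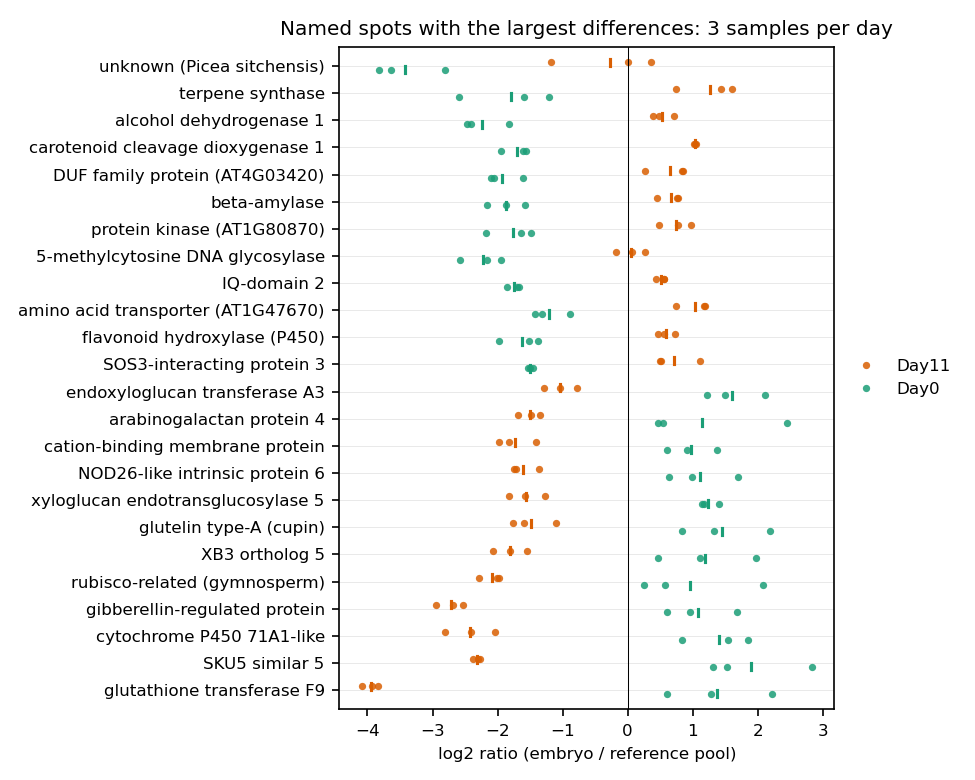
Log2 ratios of embryo over reference pool (horizontal axis) of the 24 named spots with the largest differences, 12 that rose and 12 that fell, among spots with all 6 values and 1 spot per name. Points are single samples, orange for Day11 and green for Day0, and vertical ticks are day means. The days do not overlap in any of these spots, which was a condition of their choice.

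Among spots with a name, 637 of 1773 were higher on Day11 (35.9%) and 528 lower (29.8%), with a median of 0.09. The lists below were built from words in those names. They held 615 tested spots together, of which 207 were higher and 192 lower with a median of 0.02, so a list at these shares does not stand out from the named spots at all.

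**Figure D3:**
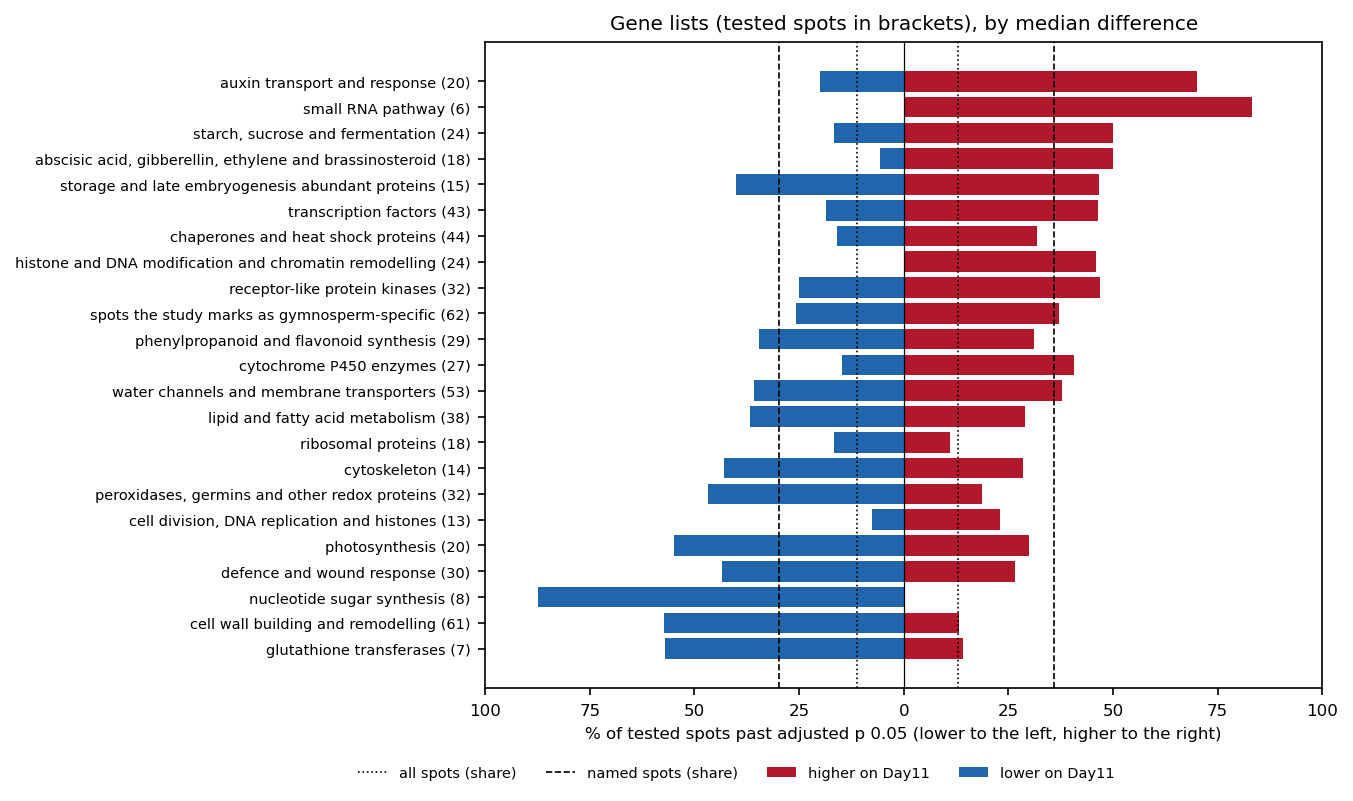
Share of each list's tested spots that passed an adjusted p of 0.05 lower on Day11 (blue, to the left) or higher on Day11 (red, to the right), in percent, ordered by the median difference of the list. Dotted lines are the shares over all tested spots (11.1% lower, 13.0% higher) and dashed lines those over named spots (29.8% lower, 35.9% higher). Auxin and small RNA spots reach furthest to the right, and nucleotide sugar, cell wall and glutathione transferase spots furthest to the left.

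Cell wall transcripts were lower on Day11. Of 61 tested spots of cell wall building and remodelling, 35 fell, 8 rose and 18 did not pass, and the median difference was -0.94, against 0.09 over named spots and 0.03 over all spots. From the scanner intensities the median was -0.675, with 37 lower and 10 higher of 67 spots, and without Day0 replicate 2 it was -0.57, with 29 lower and 8 higher of 55. Xyloglucan endotransglucosylases, which cut and rejoin the xyloglucan chains that tether cellulose, made up the largest family: 16 of 21 tested spots fell, none rose, and the median was -1.66. Their largest fall was in xyloglucan endotransglucosylase 13 (5.4.7.15), with -1.93, -1.57 and -1.97 on Day11 and 3.51 and 1.72 in the 2 Day0 samples that had values (difference -4.44, SE 0.38, adjusted p = 8.5e-06). Xyloglucan endotransglucosylase 5 (6.4.9.22) had -1.27, -1.83 and -1.58 on Day11 and 1.18, 1.41 and 1.14 on Day0 (difference -2.80, SE 0.20). Endoxyloglucan transferase A3 fell on both of its spots (1.1.16.21, -2.64, and 2.2.22.1, -2.87). Over the spots of this family with all 6 values, the sample medians were -0.85, -1.01 and -0.84 on Day11 and 1.67, 1.15 and 0.74 on Day0, so Day0 replicate 1 was the highest. Without that replicate 13 of 17 spots fell and the median was -1.64.

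Spots with pectin methylesterase in their name were divided. The name covers the enzymes, which remove methyl groups from pectin and so change the stiffness of the wall, and an inhibitor superfamily. Of 11 tested spots 5 fell and 4 rose, and which of them stand for the enzyme itself was not tested. A putative pectin methylesterase (7.4.19.14) had -2.13, -2.05 and -2.31 on Day11 and 2.05 and 2.01 in the 2 Day0 samples with values (difference -4.19, SE 0.18, adjusted p = 6.5e-08), whereas 3 spots of the pectin methylesterase inhibitor superfamily rose by 1.48 (7.2.21.10), 1.49 (6.2.13.17) and 1.49 (9.4.4.23). Expansins, which loosen walls without cutting them, fell on 5 of 8 spots, with expansin 11 (10.1.9.6) and expansin A8 (6.2.19.7) both at -2.32, and rose on 1, expansin A1 (4.3.11.7, 1.04). Arabinogalactan proteins, glycoproteins of the cell surface, fell on 4 of 7 spots and rose on 1. Proline-rich arabinogalactan protein 4 (3.1.17.7) had -1.35, -1.69 and -1.48 on Day11 and 0.46, 2.45 and 0.54 on Day0 (difference -2.66, SE 0.40, adjusted p = 0.00028), and here replicate 2 was the Day0 sample far above the others. Spots of 1 family can hold copies of the same or nearly identical cDNAs, so they are not separate genes in every case.

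Nucleotide sugar enzymes, which supply activated sugars for wall polysaccharides and glycoproteins, fell on 7 of 8 tested spots, with a median of -0.90, and none rose. Spot 7.3.21.21, named UDP-D-glucuronate 4-epimerase 3 after an enzyme that supplies galacturonate for pectin, had -0.71, -0.86 and -0.81 on Day11 and 2.30, 1.40 and 1.34 on Day0 (difference -2.47, SE 0.25, adjusted p = 1.1e-05). A UDP-D-galactose 4-epimerase (9.1.14.10) fell by 1.45 on the log2 scale. The 5 spots of the putative ortholog of EMB101, a GDP-mannose pyrophosphorylase that is required for embryo development in *A. thaliana*, had differences of -1.31 (7.2.19.18), -1.05 (6.1.20.17), -0.75 (2.3.23.10), -0.47 (3.4.19.15) and -0.32 (3.4.15.10), and 4 of them passed. On the spot with the largest difference, Day11 samples had 0.18, 0.28 and 0.30 and Day0 samples 1.75, 1.34 and 1.60 (SE 0.15, adjusted p = 5.7e-05). The days did not overlap on any of the 5 spots, and Day11 lay wholly lower on 19.6% of all spots with 6 values. The call on 3.4.19.15 (adjusted p = 0.030) was lost in a fit of both days alone (adjusted p = 0.093), when ratios were scaled between arrays (0.084), on technical replicate 1 arrays alone (0.061), and without Day0 replicate 1 (0.063), Day0 replicate 3 (0.066) or Day11 replicate 1 (0.136).

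Auxin transport and response transcripts were mostly higher on Day11. Of 20 tested spots 14 rose and 4 fell, with a median of 0.94. All 4 spots of PIN efflux carriers, which move auxin out of cells in 1 direction, rose. A putative ortholog of PIN3 had 0.58, 0.37 and 0.50 on Day11 and -1.22, -0.49 and -0.36 on Day0 on spot 3.2.4.5 (difference 1.17, SE 0.19, adjusted p = 0.00078), and its spots 6.2.4.14 and 7.1.8.4 differed by 1.41 (adjusted p = 0.0021) and 0.97 (adjusted p = 0.013) with 2 Day0 values each. PIN2 (11.4.17.22) had -0.04, 0.05 and 0.33 on Day11 and -1.27, -0.86 and -0.79 on Day0 (difference 1.09, SE 0.16, adjusted p = 0.00018). None of the PIN spots overlapped between the days, which also held for 3999 higher and 3497 lower spots of all 16462 tested. Influx carriers of the AUX1 family moved apart, since both spots of AUX1 fell and a like AUX1 3 spot (4.1.21.19) rose by 0.87. AUX1 had -0.15, -0.19 and -0.26 on Day11 and 0.55 and 0.40 on Day0 on spot 9.2.11.22 (difference -0.67, SE 0.13, adjusted p = 0.0022), and -0.67, -0.92 and -1.12 on Day11 and 1.70, 1.52 and 0.69 on Day0 on spot 9.2.9.10 (difference -2.21, SE 0.24, adjusted p = 4.8e-05). Spot 9.2.11.22 was identified by its *A. thaliana* locus only and is not among the spots counted for this list, so its fall adds to the 4.

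Regulators around the auxin carriers differed from each other. NDL1 (5.2.21.11), which modulates auxin transport in *A. thaliana* roots, had -0.83, -0.81 and -0.91 on Day11 and 1.17, 0.50 and 0.48 on Day0 (difference -1.57, SE 0.23, adjusted p = 0.00021). The GNOM ortholog (6.4.14.15), a vesicle-trafficking factor needed to place PIN proteins, had 0.06 and -0.08 on Day11 and 0.10, 0.18 and -0.10 on Day0, with overlapping days (difference -0.07, SE 0.15, adjusted p = 0.77). An IAA-alanine hydrolase of the IAR3 type (10.1.8.7), which frees auxin from a conjugate, had the largest rise of the list, with 0.74, 0.55 and 0.35 on Day11 and -1.42, -1.69 and -1.17 on Day0 (difference 1.97, SE 0.24, adjusted p = 0.00014). Auxin receptor and response transcripts also rose, among them auxin F-box protein 5 (2.4.5.10, 1.71) and both spots of auxin response factor 6 (10.2.5.12, 1.68, and 7.4.23.14, 0.92). Of the spots named as dormancy and auxin associated, 10.1.19.9 rose by 1.90 and 2.1.2.14 fell by 1.96. The days did not overlap on either, as on many of all tested spots. Without Day0 replicate 1, 11 of 16 auxin spots rose and 4 fell, with a median of 0.90.

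Spots of the other hormone pathways rose on 9 of 18 and fell on 1, with a median of 0.49, which was 0.815 on technical replicate 1 arrays alone. EIN2 (12.2.5.5), the central signal carrier of the ethylene response, had 0.49, 0.51 and 0.17 on Day11 and -0.60, -1.07 and -0.88 on Day0 (difference 1.25, SE 0.20, adjusted p = 0.00051). An ent-kaurenoic acid oxidase of family CYP88A (3.2.17.6), an early enzyme of gibberellin synthesis, had 0.48, 0.36 and 0.31 on Day11 and -1.19, -1.02 and -1.42 on Day0 (difference 1.59, SE 0.21, adjusted p = 0.00011). Ethylene response factor 7 (12.1.21.6) rose by 1.48, and both spots of regulatory components of ABA receptor 3 (3.4.9.1 and 5.3.6.21), an abscisic acid receptor, rose by 1.02. The 1 spot that fell was the gibberellin-regulated family protein described above.

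Transcription factors rose on 20 of 43 tested spots and fell on 8, with a median of 0.41. The largest rise was in the putative ortholog of AINTEGUMENTA (ANT, 6.1.20.1), an AP2 factor that sustains organ growth, with 0.07, -0.22 and 0.10 on Day11 and -1.64, -2.02 and -1.91 on Day0 (difference 1.84, SE 0.16, adjusted p = 5.9e-06). A sequence-specific DNA-binding protein (12.1.13.17) had 0.15, 0.14 and 0.04 on Day11 and -1.81, -1.66 and -1.60 on Day0 (difference 1.80, SE 0.21, adjusted p = 4.3e-05). Replicates of each day lay close together on both spots. Basic helix-loop-helix factors rose on 5 of 8 spots and fell on none. They included 6.4.7.23 (0.64 and 0.60 on Day11, -1.16, -1.11 and -0.93 on Day0, difference 1.69) and FAMA (1.4.9.14), which completes stomatal guard cell formation in *A. thaliana* (0.70, 0.32 and 0.32 on Day11, -1.49, -0.32 and -0.82 on Day0, difference 1.32, SE 0.23). A KNOTTED-like homeobox transcript (10.1.13.21), of the family that acts in shoot meristems, rose by 1.21, and GRAS factors rose on 3 of 5 spots.

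WRKY transcription factor 28 (5.1.1.2) and the leucine-zipper factor FTM3 (1.3.17.22) were the other way round. WRKY28 had -0.944, -0.677 and -1.004 on Day11 and 0.99, 0.42 and 1.04 on Day0 (difference -1.69, SE 0.17, adjusted p = 1.0e-05). FTM3 had -0.53, -0.53 and -0.62 on Day11 and 1.81, 0.39 and 1.14 on Day0 (difference -1.68, SE 0.26, adjusted p = 0.00049), so the fall was clear but its size depended on which Day0 sample is read. A spot named transcription factor 6 (8.3.10.15) fell by 2.13 with 2 values per day. NAC factors, named after a gene of the shoot meristem, fell on 2 of 5 spots and rose on 1. Differences that did not pass were 0.13 for MYB3 (2.4.19.23, adjusted p = 0.74), -0.08 for ANAC075 (2.4.7.21, 0.79), -0.49 for ATAF1 (3.2.1.2, 0.25), 0.48 for NF-YC2 (4.3.3.12, 0.28), -0.46 for BHLH105 (5.2.18.9, 0.34), 0.38 for a bHLH superfamily protein (4.4.11.2, 0.36), -0.19 for another bHLH protein (3.3.10.21, 0.74), 0.33 for a GRAS factor (1.1.20.3, 0.15) and 0.41 for a MYB-like factor (3.1.19.21, 0.15). MYB3 turned to -0.21 when ratios were scaled between arrays, and ANAC075 to 0.02 without Day11 replicate 1.

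**Figure D4:**
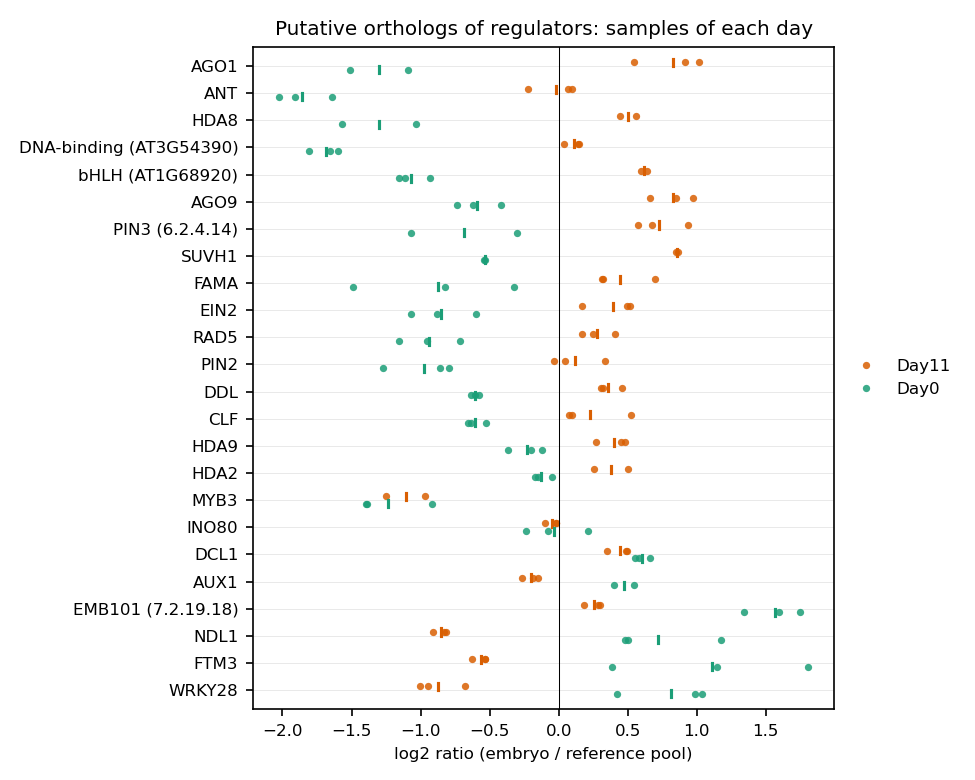
Log2 ratios of embryo over reference pool (horizontal axis) of 24 putative orthologs of regulators of transcription, chromatin, small RNA and hormone pathways and of EMB101, ordered by the difference. Points are single samples, orange for Day11 and green for Day0, and vertical ticks are day means. AGO1, ANT and HDA8 stand highest above their Day0 values on Day11, WRKY28, FTM3 and NDL1 lie lowest below them, and the days meet for INO80 and MYB3.

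Among chromatin transcripts with enough deposited ratios, 11 of 24 tested spots passed as higher on Day11 and none passed as lower, with a median of 0.28. The lowest difference was -0.99. Day11 values lay wholly above Day0 values on 13 spots and wholly below on 3, against 3999 and 3497 of all 16462 tested spots. From the scanner intensities 11 of 26 spots were higher and 2 lower, with a median of 0.16, and without the filter on quality marks 10 of 33 were higher and 5 lower, with a median of 0.12. Without Day0 replicate 1 it was 10 of 21 and none, with a median of 0.48. The putative ortholog of histone deacetylase 8 (HDA8, 6.2.9.22), which removes acetyl groups from histones, had 0.56 and 0.44 on Day11 and -1.04 and -1.57 on Day0 (difference 1.80, SE 0.19, adjusted p = 7.9e-05). HDA9 (3.1.21.21) rose by 0.63 (SE 0.13, adjusted p = 0.0023). HDA2 (11.2.17.19) had 0.26 and 0.50 on Day11 and -0.17, -0.15 and -0.05 on Day0 (difference 0.51, SE 0.14, adjusted p = 0.018), a call that was lost with background correction (adjusted p = 0.064), in a fit of both days alone (0.052) and without the filter on quality marks (0.25). HD2C (5.3.8.1) and a histone acyltransferase (7.1.7.5) had too few values for the test. From the scanner intensities HD2C had 0.49 and 0.79 on Day11 and 1.17 in 1 Day0 sample. The acyltransferase had 0.20 and 0.23 on Day11 and no kept Day0 value. Without the filter the differences were -0.68 for HD2C (adjusted p = 0.20) and -0.43 for the acyltransferase (adjusted p = 0.012). Histone methylation was represented by CURLY LEAF (CLF, 7.2.18.7), the methyltransferase of a Polycomb complex, with 0.52, 0.07 and 0.09 on Day11 and -0.53, -0.64 and -0.65 on Day0 (difference 0.83, SE 0.17, adjusted p = 0.0027), and by SUVH1 (2.3.12.22), of a family of histone H3 lysine methyltransferases, with 0.85 and 0.86 on Day11 and -0.53 and -0.54 on Day0 (difference 1.39, SE 0.19, adjusted p = 0.00052). A putative 5-methylcytosine DNA glycosylase (7.2.10.13), of the enzyme class that removes methylated cytosine from DNA, had -0.17, 0.07 and 0.26 on Day11 and -2.16, -2.58 and -1.94 on Day0 (difference 2.28, SE 0.24, adjusted p = 1.7e-05).

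Of the chromatin remodelling transcripts, the helicase RAD5 (1.2.3.11) had 0.41, 0.25 and 0.17 on Day11 and -0.72, -1.16 and -0.95 on Day0 (difference 1.22, SE 0.18, adjusted p = 0.00039). Both spots of CHC1, a remodelling complex subunit, rose, by 1.07 (4.1.9.18) and 0.86 (9.3.17.23). The SNF5-type subunit BSH (8.4.10.21) differed by 0.36 (SE 0.17, adjusted p = 0.14). INO80 (6.4.2.10), a remodelling ATPase, had -0.02, -0.02 and -0.10 on Day11 and 0.21, -0.08 and -0.24 on Day0, with overlapping days (difference -0.01, SE 0.13, adjusted p = 0.95). MSI1, a histone-binding subunit shared by several complexes, had differences of -0.10 (2.2.11.13, adjusted p = 0.84) and -0.30 (6.1.5.24, adjusted p = 0.31), with overlapping days on both spots. Another MSI1 spot (5.4.12.13) had too few Day0 values for the test. From the scanner intensities it had 0.37, -0.31 and -0.01 on Day11 and 1.32 in Day0 replicate 1. Without the filter on quality marks its difference was -0.97 (adjusted p = 0.0047). A MYB-like protein (1.4.19.18) that the study relates to DNA methylation had 1.03, 0.68 and 0.54 on Day11 and 0.75, 0.34 and 0.63 on Day0, with overlapping days (difference 0.18, SE 0.17, adjusted p = 0.49).

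Small RNA pathway transcripts rose on 5 of 6 tested spots. ARGONAUTE 1 (AGO1, 2.2.5.12), the effector that carries microRNAs to their targets, had 0.55, 0.92 and 1.02 on Day11 and -1.51 and -1.09 on Day0 (difference 2.13, SE 0.30, adjusted p = 0.00021), or 4.37-fold higher. Another AGO1 spot (9.4.14.10) has no deposited ratio and no kept scanner value on Day11. Without the filter on quality marks its difference was 0.41 (adjusted p = 0.12). AGO9 (1.4.19.11), which binds small RNAs of transposable elements in *A. thaliana*, had 0.97, 0.85 and 0.66 on Day11 and -0.42, -0.74 and -0.62 on Day0 (difference 1.42, SE 0.23, adjusted p = 0.00062). DAWDLE (DDL, 2.2.17.8), which assists the processing of microRNA precursors, had 0.31, 0.46 and 0.32 on Day11 and -0.63, -0.57 and -0.61 on Day0 (difference 0.97, SE 0.13, adjusted p = 0.00017). The microRNA processing nuclease DCL1 (10.2.21.21), annotated as ABNORMAL SUSPENSOR 1, was the exception. Its 0.50, 0.35 and 0.49 on Day11 lay just below its 0.66, 0.58 and 0.56 on Day0 (difference -0.16, SE 0.12, adjusted p = 0.39), and all 6 values were above the reference pool. The remaining rises were an FCA-type RNA-binding protein (12.4.4.20, 0.79) and dsRNA-binding protein 2 (12.3.19.14, 0.70). Another spot, which the study names as the flowering time control protein FCA (8.2.9.24), has no deposited ratio and had only 1 kept scanner value on the 2 days, 0.07 in Day11 replicate 2. Without the filter its difference was -0.42 (adjusted p = 0.040), in the other direction.

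Several regulators named by the study had too few values on 1 of the days for the test. ARF16 (5.3.10.21), an auxin response factor, had ratios recomputed from the scanner intensities of -3.04, -3.20 and -3.31 on Day11. Its single Day0 value was 1.99 in replicate 1. Without the filter on quality marks its difference was -4.30 (adjusted p = 7.8e-07). MYB4 (6.3.22.5), read from the same intensities, had a single Day11 value of 0.70 and Day0 values of -2.14, -1.85 and -1.94 (2.44 without the filter, adjusted p = 5.1e-06). Values did not overlap between the days on either spot, but a single value on a day shows no spread, so this carries little weight. AS2 (Asymmetric leaves 2, 3.3.17.13), KANADI 2 (8.2.2.4) and YABBY 2 (10.3.2.2), which set the upper and lower faces of lateral organs in flowering plants, have no deposited ratios. From the scanner intensities AS2 had 0.73 and 0.78 on Day11 and no kept Day0 value, KANADI 2 had 0.77, 0.39 and 0.04 on Day11 and -1.14 in 1 Day0 sample, and YABBY 2 had -0.60 and -0.62 on Day11 and -1.61 in 1 Day0 sample. Unfiltered differences were 2.57, 1.42 and 1.02 for these genes in that order, and were past an adjusted p of 0.05. Further regulators of the study also had too few values, and only unfiltered differences are given for them. HYL1 (9.3.15.18) had 0.49 (adjusted p = 0.013) and NF-YA9 (4.4.11.10) 0.78 (0.00015). A PLATZ factor (10.3.12.3) had -1.07 (0.0064), NAM/NARS2 (2.3.14.1) -0.37 (0.066) and ASHH2 (10.2.13.22) 0.29 (0.40). VIM1 and DDM1, which act in DNA methylation in *A. thaliana*, could be tested only from the scanner intensities. VIM1 (8.1.4.5) had -0.18, -0.53 and -0.13 on Day11 and 0.24 and 0.40 on Day0 (difference -0.60, SE 0.16, adjusted p = 0.017), and DDM1 (1.3.3.10) had 0.16, 0.15 and 0.16 on Day11 and 0.48, 0.79 and 0.66 on Day0 (difference -0.48, SE 0.17, adjusted p = 0.067).

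Storage and late embryogenesis abundant transcripts, which load maturing seeds and are also made by the megagametophyte, split between groups made from the names of spots. Of 15 tested spots 7 rose and 6 fell, with a median of 0.44, and the sample medians over spots with all 6 values were between -0.33 and -0.09 on Day11 and between -0.65 and -0.50 on Day0. Glutelins, storage globulins of the cupin fold, fell on both tested spots. Glutelin type-A (4.1.2.22) had -1.10, -1.59 and -1.76 on Day11 and 2.19, 0.84 and 1.33 on Day0 (difference -2.94, SE 0.34, adjusted p = 3.8e-05), and 8.4.21.5 had -1.59 and -1.73 on Day11 and 1.28 and 1.43 on Day0. Dehydrins, which protect cells during water loss, fell on all 4 tested spots, with the largest fall in dehydrin 9 (11.1.17.3, -1.99, SE 0.22). Spots named as late embryogenesis abundant proteins, counted apart from dehydrins only by their names, rose on 6 of 8 with a median of 1.49. They were led by 1.4.19.24 with 0.26, -0.03 and 0.11 on Day11 and -2.14, -1.84 and -1.72 on Day0 (difference 2.01, SE 0.20, adjusted p = 1.4e-05). No spot named vicilin, legumin, albumin or oleosin was among the names used here, and the part of megagametophyte RNA in these or other differences was not tested.

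Photosynthesis transcripts also split. Of 20 tested spots 11 fell and 6 rose, with a median of -0.53, which was -0.07 without the dimmest 0.25 of spots, -0.06 on technical replicate 1 arrays alone and -0.88 without Day0 replicate 2. All 5 photosystem I subunits fell, by 0.72 to 1.58 on the log2 scale. Subunit O (2.3.19.13) had -1.01, -0.78 and -0.85 on Day11 and 0.67, 0.88 and 0.56 on Day0 (difference -1.58, SE 0.18, adjusted p = 2.6e-05). Rubisco activase, which keeps the carbon-fixing enzyme open, fell on all 3 spots, with -0.29 and -0.52 on Day11 and 1.74 and 1.43 on Day0 on 4.4.20.4 (difference -1.99, SE 0.18). In contrast both spots of protochlorophyllide oxidoreductase A, a light-driven enzyme of chlorophyll synthesis, rose, with 0.83 and 0.84 on Day11 and -1.02 and -0.92 on Day0 on 7.4.7.11 (difference 1.80, SE 0.24, adjusted p = 0.00054). A light harvesting protein of photosystem II (11.3.2.9) rose by 1.56.

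Starch, sucrose and fermentation transcripts rose on 12 of 24 tested spots and fell on 4, with a median of 0.58. Besides beta-amylase 2, alpha-glucan phosphorylase 2 (8.3.23.1) rose by 1.46 and pyruvate decarboxylase (2.3.23.5), the enzyme before alcohol dehydrogenase in fermentation, by 1.07. Alcohol dehydrogenase 1 rose on 4 of 6 spots, by 0.65 to 2.76. A hexose transporter (11.3.20.6) had -0.39 and -0.92 on Day11 and 2.02, 1.34 and 1.80 on Day0 (difference -2.37, SE 0.32, adjusted p = 0.00015). Lipid metabolism had 11 spots higher and 14 lower of 38, and the direction differed between the families that were looked at. Phospholipase D, which cleaves membrane lipids into phosphatidic acid, fell on all 4 spots (-1.06 to -0.81), and 3-ketoacyl-acyl carrier protein synthase III, which starts plastid fatty acid chains, rose on all 3 (0.92 to 1.31). Glycolipid transfer proteins rose by 2.07 (1.3.12.24) and 2.05 (2.2.4.3), and a GDSL lipase (10.1.4.11) fell by 1.91.

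Phenylpropanoid and flavonoid enzymes rose on 9 and fell on 10 of 29 tested spots, and enzyme families went different ways, of which a pair chosen after their values were seen is given here. Caffeoyl O-methyltransferases, which act in the lignin branch, fell on all 5 spots with a median of -1.82, and 4.2.3.20 had -1.59, -1.23 and -1.60 on Day11 and 1.12, 1.00 and 0.95 on Day0 (difference -2.50, SE 0.23, adjusted p = 6.6e-06). Dihydroflavonol reductase and anthocyanidin synthase, in the branch to tannins and anthocyanins, rose on all 4 spots with a median of 1.89. The dihydroflavonol 4-reductase spot 11.2.15.9 had 0.25, -0.24 and 0.08 on Day11 and -2.07 and -1.97 on Day0 (difference 2.05, SE 0.34, adjusted p = 0.00065). The list median was 0.17, and it was -0.19 without Day0 replicate 1, when 4 of 21 spots rose and 10 fell.

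Glutathione transferases fell on 4 of 7 spots, both spots of PHI 9 among them, and rose on 1. The second PHI 9 spot (4.4.6.21) had -2.23, -1.82 and -1.98 on Day11 and 2.55 and 0.68 on Day0 (difference -3.62, SE 0.39). Cytochrome P450 enzymes rose on 11 and fell on 4 of 27 spots. Class III peroxidases, secreted enzymes that can cross-link wall polymers, fell on 9 of 13 spots and rose on 2. The extremes were 8.1.7.15 (-1.45, -1.71 and -1.61 on Day11, 1.03 and 0.56 on Day0, difference -2.38, SE 0.32) and 12.4.13.21, which rose by 1.82 with -0.65, -0.32 and -0.17 on Day11 and -2.21, -2.22 and -2.17 on Day0. The whole list of peroxidases, germins and other redox proteins had 15 spots lower and 6 higher of 32.

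Defence transcripts fell on 13 and rose on 8 of 30 spots. Chitinases, which cleave the chitin of fungal walls and act on some plant glycoproteins, fell on all 7 spots, and the basic chitinase spot 11.4.11.14 had -1.26 and -1.52 on Day11 and 2.56 and 1.48 on Day0 (difference -3.41, SE 0.34, adjusted p = 6.6e-05). Resistance proteins with a nucleotide-binding site, intracellular pathogen sensors, rose on 6 of 12 spots and fell on 3. Receptor-like protein kinases rose on 15 of 32 spots and fell on 8, with both spots of RLK902 among the falls (7.3.8.12, -2.28, and 12.1.18.16, -1.70). Water channels and membrane transporters rose on 20 and fell on 19 of 53 spots, so that neither direction prevailed. Chaperones and heat shock proteins rose on 14 and fell on 7 of 44, with a small heat shock protein (10.2.15.16) at 1.36, Hsp90.1 (4.3.18.20) at 1.21 and Hsp101 (2.2.19.16) at 1.19, and a DnaJ-domain chaperone (3.2.16.14) at -1.95.

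Cell division and ribosomal spots gave few calls in either direction, and cytoskeletal spots gave calls in both. Of 13 tested spots of division, replication and histones, 3 rose and 1 fell. Cyclin B1 (6.2.7.24), a mitotic cyclin, had -0.29, -0.75 and -0.79 on Day11 and 0.37 and 0.53 on Day0 (difference -1.06, SE 0.19, adjusted p = 0.0015), while a cyclin-dependent kinase inhibitor (9.4.17.10) rose by 1.09 and a REV7-type HORMA protein (3.2.17.19) by 1.53. Histone H2AX (3.4.8.10) rose by 0.50 (adjusted p = 0.012), which became 0.054 without Day11 replicate 1. Ribosomal proteins rose on 2 and fell on 3 of 18 spots. Cytoskeletal spots fell on 6 and rose on 4 of 14. Profilin 3 (2.1.14.14), which binds actin monomers, had -1.66 and -1.40 on Day11 and 2.00, 1.69 and 1.10 on Day0 (difference -3.13, SE 0.22, adjusted p = 2.0e-06), and actin-11 (11.3.13.23) and actin-related protein C3 (5.4.12.7) fell by 1.74 and 1.93 on the log2 scale. The median of the cytoskeletal list was -0.25 and changed sign without Day11 replicate 1 (0.07) or replicate 3 (0.29), on spots with values in all 6 samples (0.05), and on technical replicate 1 (0.06) or 2 (0.15) arrays alone.

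Spots that the study marked as gymnosperm-specific rose on 23 and fell on 16 of 62, close to the shares over named spots. They held the largest rise of any spot, in 9.2.5.22, an unknown *P. sitchensis* protein with 0.73, 0.91 and 0.83 on Day11 and -4.23 and -2.00 on Day0 (difference 3.94, SE 0.41, adjusted p = 2.4e-05), or 15.3-fold. Its 2 Day0 values lay far apart, although both were below every Day11 value. The largest fall of this list was in a transcript resembling the large subunit of rubisco (7.2.3.4), with -2.28, -1.98 and -2.00 on Day11 and 2.07, 0.57 and 0.25 on Day0 (difference -3.05, SE 0.40, adjusted p = 8.9e-05). Among spots without a name, 11.3.4.12 rose by 3.18 and 6.3.8.16 by 2.84, and 9.2.13.15 fell by 2.79 and 7.4.8.22 by 2.50 on the log2 scale.

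Values of pre-cotyledonary embryos (Day5, stages T3 and T4) show how the change was spread over the interval. They describe the same spots, with no test, and they share the Day0 and Day11 samples. Of 500 spots that rose at least 2-fold and had Day5 values in at least 2 replicates, 109 (21.8%) had covered under 33.3% of the change by Day5, 265 (53.0%) between 33.3% and 66.7%, and 126 (25.2%) over 66.7%. Of 492 spots that fell at least 2-fold, 45 (9.15%) had covered under 33.3%, 196 (39.8%) between, and 251 (51.0%) over 66.7%. More of the falls than of the rises were thus already near their Day11 level on Day5. Whether this holds without Day0 replicate 1 was not tested. Among falls, glutathione S-transferase PHI 9 (7.1.21.13) had a Day5 mean of -2.90 and had covered 80.3% of its change, and SKU5 similar 5 (2.1.19.10) had covered 68.0%.

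Some falls came after Day5. Cytochrome C-1 (1.2.13.21), a mitochondrial electron carrier, had a mean of 0.23 on Day5, with -1.57, -1.07 and -1.06 on Day11 and 0.54, 0.43 and 0.56 on Day0 (difference -1.74, SE 0.23). Ubiquitin conjugating enzyme 9 (3.2.21.2) had 0.28 on Day5, with -1.07, -0.72 and -0.84 on Day11 and 0.56, 0.80 and 0.77 on Day0 (difference -1.59). The signal peptide transcript RALF-like 34 (9.1.13.18) had -0.45 on Day5 and differed by -1.69. Of the rises, AINTEGUMENTA had covered 28.8% of its change on Day5 (mean -1.33), SOS3-interacting protein 3 29.1% (mean -0.86) and an epsin-type ENTH/VHS protein (6.1.17.22) 25.8%. The peroxidase 12.4.13.21 had covered 99.7% (mean -0.39) and a remorin (7.3.6.24) 81.0%. Some Day5 means rest on few replicates. In the scanner intensities the peroxidase had only 2 Day5 values, -0.98 and 0.29, so its share is uncertain. Cytochrome C-1 (-0.09 and 0.65), ubiquitin conjugating enzyme 9 (0.11 and 0.63) and the remorin (0.05 and -0.28) also had 2 there. AGO1 had covered 65.1% and DAWDLE 37.8%.

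The levels of Day11 were mostly kept in cotyledonary embryos (Day15, stage T5). Of 496 rises with Day15 values, 494 were within 2-fold of Day11 and 454 were still at least 2-fold above Day0. Of 492 falls, 491 were within 2-fold of Day11 and 436 at least 2-fold below Day0. In mature embryos (Day25, stage T7) 386 of 487 rises were within 2-fold of Day11, 67 had moved further up and 34 back down by at least 2-fold, and 436 of 481 falls were within 2-fold, with 24 further down and 21 back up. Rubisco activase (4.4.20.4) was among the falls that came back, and had a mean of -0.33 on Day15 and 1.31 on Day25.

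**Figure D5:**
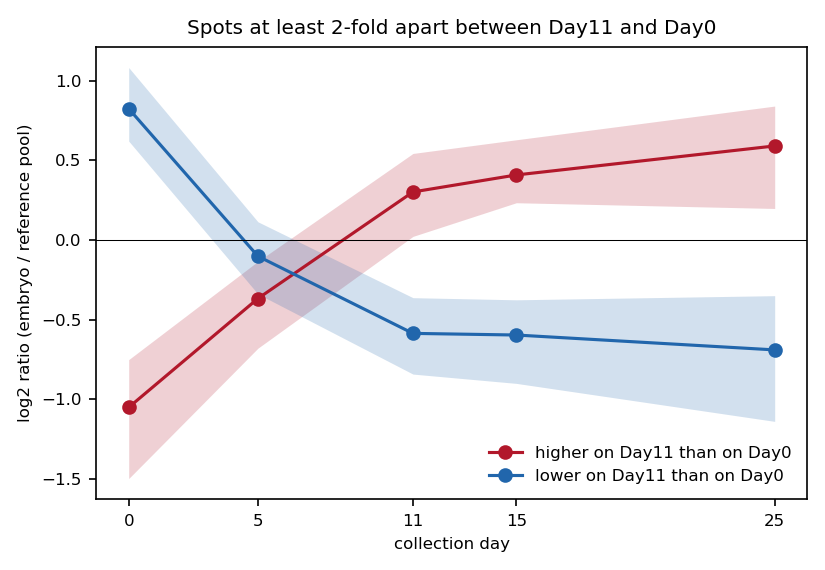
Median log2 ratio of embryo over reference pool (vertical axis) against collection day (horizontal axis) for the spots at least 2-fold higher on Day11 (red, 541 spots) and at least 2-fold lower (blue, 516 spots), with the quartiles over spots as bands. The medians run through -1.05, -0.37, 0.30, 0.41 and 0.59 for the higher spots and through 0.82, -0.10, -0.59, -0.60 and -0.69 for the lower ones on Day0, Day5, Day11, Day15 and Day25. The difference of Day11 and Day0 chose the spots, so only the other days carry information beyond the choice.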

How the data were processed

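Zygotic embryo RNA was amplified in 2 rounds, labelled and hybridised to PtGen2 cDNA arrays with a common reference. The log2 ratios (embryo channel over reference channel) were deposited after print-tip and cyclic loess by the authors without background correction, steps that keep each array's median near 0, so a shift shared by most transcripts cannot be seen. The authors also deposited scanner intensities, on a linear scale and not normalized, with 2 quality marks per spot. A spot has a deposited ratio on an array only if both of its marks are 1. However, 6041 of the 6819 spots with no ratio on any array carry both marks on at least 1 array, and the criterion that removed them was not given in the sources used here.

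Deposited log2 ratios of technical replicates were averaged and day means of all 15 samples were fitted with limma 3.58.1 in R 4.3.3, with moderated spread and Benjamini-Hochberg adjustment over all tested spots. Ratios recomputed from intensities (48 print tips, span 0.3, 4 iterations) correlated with the deposited ones at 0.993 to 0.999 per array. On simulated data, 30.0%, 79.0% and 98.0% of log2 differences of 0.5, 1 and 2 passed, among 16462 spots. Only 200 spots of each size carried a difference, far fewer than passed in the data, so the adjustment was stricter there. These shares need not hold for the real comparison. The replicate numbers of the labels were checked for pairing. Deviations of same-numbered samples correlated at 0.163, 0.169 and 0.125, and those of differently numbered samples of the 2 days at -0.168 to 0.039. Pairing was therefore allowed for in an alternative fit, without the labels saying what a number shares. The main fit held no replicate term, and the alternative with a replicate block gave 3959 spots.

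Named spots followed a rule: 12 rises and 12 falls with the largest difference among named spots with all 6 values and no overlap, 1 per name; the regulators and embryo genes of the study; up to 4 spots of each list; 3 rises and 3 falls of each timing class; and 2 rises and 2 falls without a name. Members and lists were chosen with earlier results of these data known. Families within lists, and members named only for them, were chosen after their values were seen. Names come from tables of the study, of which some were available only in part. Of 162 spots chosen by the rule, 144 were tested and none was saturated. Alternatives covered background, normalization, filters, samples, arrays and moderation. Python 3.11.15 made the tables and figures.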

Additional observations from a re-analysis of the deposited data

Results flagged for a closer look

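Data outside the main measurement also carried differences. Of the 6819 spots without any deposited ratio, 1591 had enough kept values when ratios were recomputed from the scanner intensities. Of these, 198 were higher on Day11 and 178 lower (23.6% together, against 24.0% of all 18053 spots tested this way), and 115 passed an adjusted p of 0.05 with at least a 2-fold difference (61 higher and 54 lower), by limma with Benjamini-Hochberg adjustment. Why these spots lack deposited ratios was not tested.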

How the results depend on the processing

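Alternatives were run spot by spot for the 144 tested spots that the rule chose, not for other members named in the text. Their direction held under every alternative run, save for 4 spots that were not past the threshold. INO80 (6.4.2.10) turned to 0.0015 when ratios were scaled between arrays, 0.1094 without Day0 replicate 1, 0.0137 without Day11 replicate 3 and 0.0430 on technical replicate 2 arrays alone, and the range without 1 sample was -0.1135 to 0.1094. MYB3 (2.4.19.23) turned to -0.2149 when scaled, ANAC075 (2.4.7.21) to 0.0203 without Day11 replicate 1 (range -0.2283 to 0.0203), and MSI1 (2.2.11.13) to 0.1012 when scaled and 0.1170 without Day0 replicate 1 (range -0.2696 to 0.1170). Of the 127 of these spots past the threshold, HDA2, EMB101 (3.4.19.15), H2AX and a ribosomal protein L6 spot (6.2.21.6, technical replicate 1 arrays alone, adjusted p = 0.052) lost their call under some alternative. No filter on quality marks gave 7378 spots past the adjusted p and 1861 with 2-fold, over 26496 tested spots. Values in all 3 replicates of both days left 606 spots past 2-fold, 81 named spots and 258 list spots, with fewer tested. Leaving out 1 sample gave 2382 to 3404 spots past the adjusted p, 823 to 951 past 2-fold, 105 to 111 named and 321 to 350 list spots; the lowest count, 2382 of 13640, was without Day11 replicate 2. Chosen after seeing the data, technical replicate 1 arrays alone gave 2302 spots and 81 named spots, and technical replicate 2 arrays alone 1817 spots, 559 past 2-fold, 71 named and 226 list spots. The replicate block gave 3959 spots, 1051 past 2-fold, 127 named and 403 list spots, and changed no call among those 144 spots. Every tested named spot had a median embryo signal at least 4.27-fold over background on both days.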
